A study of Mus musculus with 10 samples.

Results

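The genes described here are 8 members of the YAP/TAZ pathway and its target set, taken by symbol from the deposited tables, which hold 23364 genes in all. They are the coactivators Yap1 and Wwtr1 (the gene for TAZ), their DNA-binding partner Tead1, the targets Ctgf, Cyr61 and Ankrd1, and the targets Amotl2 and Lats2, whose products feed back on the pathway. All 8 have a row in both tables.

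YAP and TAZ carry signals from cell contact, shape and stiffness of the surroundings into the nucleus. The Hippo kinase cascade, which ends in LATS kinases, phosphorylates them and keeps them in the cytoplasm; when it is inactive they enter the nucleus and switch on genes through TEAD proteins. In the intestine YAP is known for its part in regeneration after injury and in tumour growth, and its activity is set largely by where the protein sits, which RNA levels do not show.

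RNA was sequenced from crypts shaken off mouse distal colon with EDTA, which loosens the epithelium. AOM+DSS is 3 libraries of mice that received azoxymethane, a DNA-alkylating carcinogen, followed by dextran sulfate sodium. DSS is 4 libraries of mice that received dextran sulfate sodium alone, which injures and inflames the colon lining. Control is 3 libraries of mice without treatment. The submitters describe AOM+DSS as cancer and DSS as inflammation, so the comparisons ask how the pathway's RNA differs in each state. The labels used here give no strain, age, dose or time, and do not say whether tumours were dissected. Nor do they say whether each library is another animal, so the p-values reflect the spread among these libraries alone, and that spread may be technical.

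Whole reads per library were recovered for all 8 members in all 10 libraries, and within a group they are lettered by depth, library a being the deepest. Relative depth (the size factor) ran between 0.905 and 1.34 in AOM+DSS, 0.645 and 1.27 in DSS, and 0.944 and 1.04 in control. None of 13 epithelial markers had a group mean of 0, and their summed means were 259234 in AOM+DSS, 289595 in DSS and 258181 in control. Control library b stood apart from the other two control libraries in fibroblast and matrix markers, with a sum of 3479 normalized reads, against 685 in library a and 701 in library c. AOM+DSS library c had a smooth muscle marker sum of 14090 normalized reads, against 1446 in library a and 1366 in library b, and it also stood apart in collagen genes.

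The promoters are shown first, as description only. RefSeq promoter windows (GRCm38.p6, 250 bases before to 50 after an annotated start) were found for 6 of the 8 members, in 8 windows, with none for Ctgf and Tead1. The 250 bases upstream of the annotated start are printed 5′ to 3′ on the gene's strand for 3 target genes and for Wwtr1, with the TEAD hexamer GGAATG, or CATTCC on the other strand, in capitals. The windows are chr3:145649986-145650235 (minus) for Cyr61, chr19:36119845-36120094 (minus) for Ankrd1, chr9:102717554-102717803 (plus) for Amotl2 and chr3:57575911-57576160 (minus) for Wwtr1.
Cyr61: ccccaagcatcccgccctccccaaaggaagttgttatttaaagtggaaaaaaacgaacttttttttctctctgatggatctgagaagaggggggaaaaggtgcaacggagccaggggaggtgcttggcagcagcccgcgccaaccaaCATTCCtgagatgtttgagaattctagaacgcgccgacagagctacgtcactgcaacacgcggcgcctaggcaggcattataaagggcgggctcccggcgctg
Ankrd1: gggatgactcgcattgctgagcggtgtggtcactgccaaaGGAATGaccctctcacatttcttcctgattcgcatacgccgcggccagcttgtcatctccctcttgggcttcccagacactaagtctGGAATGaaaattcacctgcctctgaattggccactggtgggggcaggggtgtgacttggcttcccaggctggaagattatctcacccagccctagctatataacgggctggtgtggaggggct
Amotl2: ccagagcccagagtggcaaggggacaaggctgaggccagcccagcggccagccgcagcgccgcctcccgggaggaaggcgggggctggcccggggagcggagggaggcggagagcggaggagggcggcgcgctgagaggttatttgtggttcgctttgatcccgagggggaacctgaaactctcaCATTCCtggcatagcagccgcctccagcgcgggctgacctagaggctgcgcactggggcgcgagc
Wwtr1: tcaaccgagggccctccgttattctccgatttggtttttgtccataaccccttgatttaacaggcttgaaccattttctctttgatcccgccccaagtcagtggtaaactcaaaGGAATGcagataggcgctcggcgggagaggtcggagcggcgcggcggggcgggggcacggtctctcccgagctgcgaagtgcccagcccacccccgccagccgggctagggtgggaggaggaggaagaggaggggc

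Every one of the 6 members held at least 1 hexamer, in 7 of the 8 windows, against 14.7% of all 32851 windows of this length. The 2 Wwtr1 windows overlap and hold the same genomic hexamer, so that these 7 windows are not independent. Counted from the transcription start, the hexamer began at position -103 in Cyr61, at -210 and -123 in Ankrd1, at -65 in Amotl2, at -141 in Yap1 and at -136 in Wwtr1. In Lats2 it lay just past the start, at position 5, in gacgcccgtGGAATGccaacaatg (chr14:57746105-57746128, minus), and the window at the second Lats2 start held none. The AP-1 motif TGANTCA, searched on both strands, was in 0 of the 8 windows, against 7.81% of all windows. With so few windows, a count of 0 cannot be told from that share. Neither motif contains the other, and a match of letters is not a measured binding site. The members were picked as YAP/TAZ targets and pathway genes, and a high share of TEAD hexamers can follow from that choice. Amotl2 and Lats2 held hexamers but did not pass the threshold in the comparisons below, while Ctgf and Tead1, which passed, had no window. A link between the hexamers and the RNA differences was not tested.

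In AOM+DSS crypts, 5 of the 8 members were higher than in control crypts and none was lower, by the DESeq adjusted p (Benjamini-Hochberg, under 0.05) of the authors' deposited table. Over all 18334 genes tested there, 5.54% were called higher and 3.35% lower. The 5 were the secreted matrix proteins Ctgf and Cyr61, both coactivators Yap1 and Wwtr1, and Tead1. In the authors' deposited table the members' median log2 fold was 1.18, against 0.043 over all genes tested, with Ankrd1 listed as infinite. In limma on log2(normalized reads + 1), 6 of 8 were higher, with Ankrd1 added, against 10.8% of all genes higher and 6.47% lower. The libraries of 6 members did not overlap between the groups, being higher in AOM+DSS for all but Amotl2 and Lats2, and this held for 20.8% of all genes, with 17.8% lower. In bulk RNA, a change in the share of a cell type and a change in RNA per cell cannot be told apart.

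Leaving out AOM+DSS library a, control library a or control library c each reduced the limma count to 1, the called gene being Tead1. Over all genes, calls fell to 712, 532 and 702 in these fits, against 3150 with every library. The differences stayed between 1.15 and 1.41 for Cyr61 and between 0.56 and 0.79 for Yap1 over the 6 libraries left out in turn. Without AOM+DSS library b it was 4, without AOM+DSS library c it was 7 and without control library b it was 6. With control library b and AOM+DSS library c both left out, an alternative chosen after seeing the data, it was 7.

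**Figure D1:**
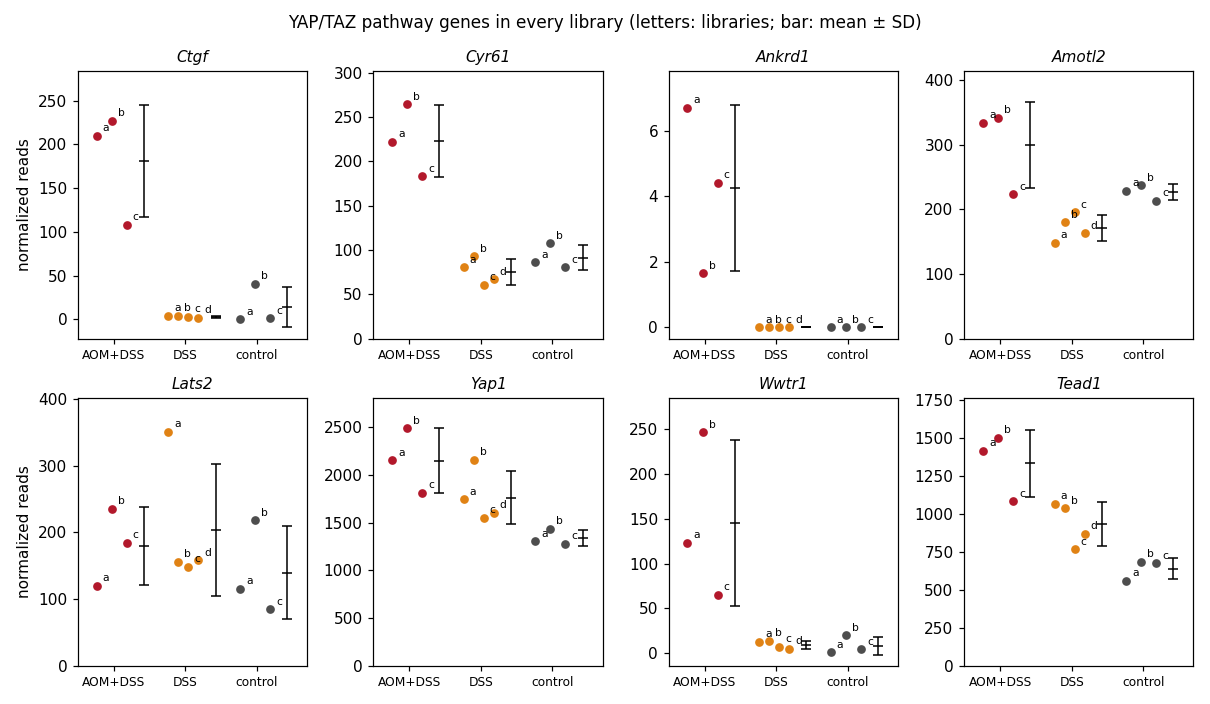
Normalized reads (vertical axes, linear, each with its own range) of the 8 genes in every library of AOM+DSS, DSS and control; letters mark libraries and bars the mean ± SD (n = 3, 4 and 3). Ctgf and Wwtr1 are high in all 3 AOM+DSS libraries, Ankrd1 is above 0 only there, and Lats2 has 1 DSS library, a, at 351.

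Yap1 encodes the coactivator YAP. Its normalized reads were 2153, 2491 and 1812 in AOM+DSS libraries a to c, 1746, 2161, 1549 and 1602 in DSS libraries a to d, and 1306, 1435 and 1279.5 in control libraries a to c. Every AOM+DSS and every DSS library lay above every control library, and AOM+DSS and DSS overlapped. The authors' deposited table gives a 1.61-fold higher mean in AOM+DSS than in control (log2 0.68, DESeq adjusted p = 0.0226). The limma difference was 0.67 (95% interval 0.37 to 0.97, adjusted p = 0.0155), and its adjusted p ran between 0.00721 and 0.0823 with single libraries left out.

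Wwtr1 encodes TAZ, the paralogue of YAP, and is known to share many of its targets. AOM+DSS libraries a to c had 123, 246 and 65.2 normalized reads, DSS libraries a to d had 12.6, 14.01, 7.08 and 4.65, and control libraries a to c had 0.965, 19.8 and 4.24. All AOM+DSS libraries stood above all others, with a wide spread among themselves, and within control the reads lay mostly in library b. The authors' deposited table gives a 17.4-fold higher mean in AOM+DSS than in control (log2 4.12, DESeq adjusted p = 0.0385). The limma difference was 4.41 (95% interval 2.36 to 6.45, adjusted p = 0.0174). Without control library b it was 5.30, and its adjusted p was between 0.00483 and 0.0747 over the 6 single libraries left out.

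Tead1 encodes a TEAD transcription factor, the DNA-binding partner of YAP and TAZ. It had 1415, 1499.6 and 1084 normalized reads in AOM+DSS libraries a to c, 1067, 1037, 766 and 867 in DSS libraries a to d, and 558, 683 and 676 in control libraries a to c. The groups did not overlap, with AOM+DSS highest, DSS between and control lowest. The authors' deposited table gives a 2.09-fold higher mean in AOM+DSS than in control (log2 1.06, DESeq adjusted p = 0.000163). The limma difference of 1.05 (95% interval 0.70 to 1.40, adjusted p = 0.00637) was called with each of the 6 libraries left out in turn.

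Ctgf encodes connective tissue growth factor, a secreted matrix protein and a standard readout of YAP activity. It had 209.7, 227 and 108 normalized reads in AOM+DSS libraries a to c, 3.95, 4.12, 2.83 and 1.55 in DSS libraries a to d, and 0, 40.5 and 1.06 in control libraries a to c. These rest on 654 reads in AOM+DSS, 13 in DSS and 42 in control, of which control library b held 41. AOM+DSS lay above every other library, DSS was low throughout, and control was set by 1 library. The authors' deposited table gives a 13.1-fold higher mean in AOM+DSS than in control (log2 3.71, DESeq adjusted p = 0.000211). On the limma scale the difference was 5.30 (95% interval 2.40 to 8.20, adjusted p = 0.0284). It was 6.92 without control library b and 4.23 without control library a, and its adjusted p was between 0.00104 and 0.115 with single libraries left out, past the threshold in 2 of 6 cases (without AOM+DSS library c and without control library b).

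Cyr61 encodes a second secreted protein of the same family. AOM+DSS libraries a to c had 222, 265 and 183 normalized reads, DSS libraries a to d had 80.6, 93.1, 60.9 and 66.7, and control libraries a to c had 85.9, 107.6 and 80.5. AOM+DSS stood above both other groups, which overlapped, and control library b was only slightly above its group. The authors' deposited table gives a 2.45-fold higher mean in AOM+DSS than in control (log2 1.29, DESeq adjusted p = 0.00949). The limma difference was 1.28 (95% interval 0.74 to 1.81, adjusted p = 0.0127), with adjusted p between 0.00935 and 0.0691 when single libraries were left out.

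Ankrd1 encodes an ankyrin repeat protein best known from heart muscle and is a common YAP readout. It had 9, 2 and 4 reads in AOM+DSS libraries a to c, and 0 reads in all 4 DSS and all 3 control libraries. All 15 reads therefore lay in AOM+DSS, giving a pooled level of 4.34 normalized reads (exact Poisson 95% interval 2.43 to 7.15, counting error only). With the groups at 0 set to a floor of 3 reads, its AOM+DSS mean was 4.24 times the control floor and 5.43 times the DSS floor. These ratios leave out the counting error of the 15 reads and are not lower limits. The Poisson 95% upper limits were 1.23 in control and 0.963 in DSS. The authors' deposited table gives a DESeq adjusted p of 0.732 for AOM+DSS against control, while limma gave an adjusted p of 0.0205. The limma adjusted p was between 0.0201 and 0.0924 with single libraries left out, and missed the threshold without AOM+DSS library a, control library a or control library c.

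Amotl2 encodes an angiomotin family protein that binds YAP and holds it outside the nucleus. It had 334, 342 and 223 normalized reads in AOM+DSS libraries a to c, 149, 179.6, 195 and 163 in DSS libraries a to d, and 229, 237 and 213 in control libraries a to c. AOM+DSS library c fell among the control libraries, and all DSS libraries were below them. The authors' deposited table gives a log2 fold of 0.40 in AOM+DSS over control (DESeq adjusted p = 0.517). The limma difference was 0.38 (95% interval -0.08 to 0.84, adjusted p = 0.220), and it was 0.58 with an adjusted p of 0.0324 without AOM+DSS library c, in a range up to 0.475 over the single libraries left out.

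Lats2 encodes a kinase that phosphorylates YAP and TAZ. It had 119.7, 236 and 184 normalized reads in AOM+DSS libraries a to c, 351, 156, 149 and 158 in DSS libraries a to d, and 116, 218 and 84.7 in control libraries a to c. The groups overlapped, and DSS library a was far above the other 3 of its group. The authors' deposited table gives a log2 fold of 0.37 in AOM+DSS over control (DESeq adjusted p = 0.944), and the limma interval ran between -0.48 and 1.33.

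**Figure D2:**
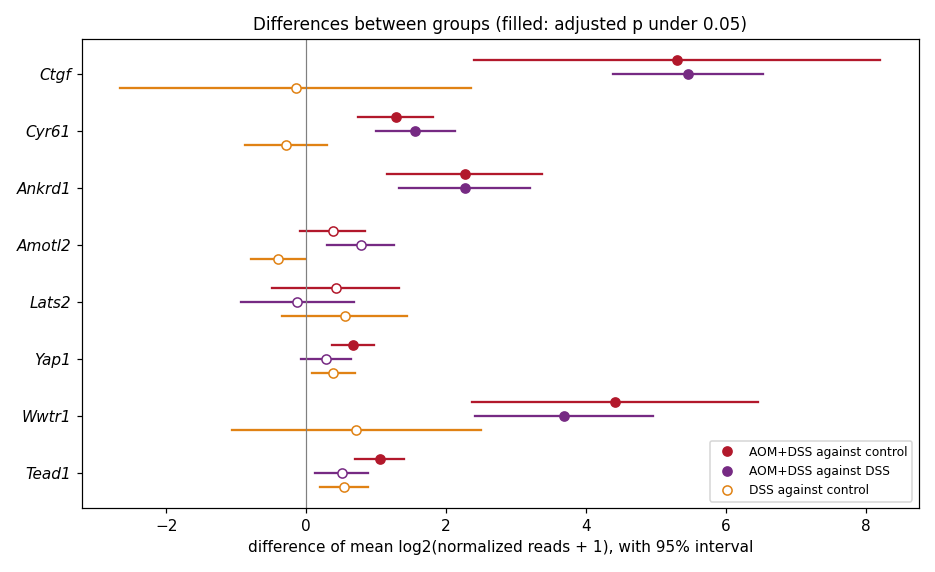
Differences of mean log2(normalized reads + 1) with 95% intervals from limma (horizontal axis) for each gene in AOM+DSS against control, AOM+DSS against DSS and DSS against control; filled points have an adjusted p under 0.05. Ctgf, Cyr61, Ankrd1 and Wwtr1 are filled in both AOM+DSS comparisons, Yap1 and Tead1 are filled only in AOM+DSS against control, and Ankrd1 has no point for DSS against control, where all libraries are at 0, so that its other points depend on the pseudocount.

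Compared directly, AOM+DSS crypts had more Ctgf, Cyr61, Ankrd1 and Wwtr1 RNA than DSS crypts. These 4 of 8 members were called higher in limma and none lower, against 2.28% called higher and 0.0826% lower of the 15748 genes tested. The members' median log2 difference was 1.17, also with Ankrd1 at its ratio to the floor, against 0.045 over all genes. Libraries did not overlap for 6 members, all higher in AOM+DSS and including Amotl2 and Tead1 beside the 4 called, as for 8.86% of all genes, with 3.42% lower. This comparison shares the AOM+DSS libraries with the one against control, and the authors' tables do not hold it.

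Ctgf differed by 5.45 between AOM+DSS and DSS (95% interval 4.38 to 6.52, limma adjusted p = 0.00096) and was called with each of the 7 libraries left out. Wwtr1 differed by 3.69 (2.42 to 4.96, limma adjusted p = 0.0130), Cyr61 by 1.56 (1.00 to 2.12, limma adjusted p = 0.0152), and Ankrd1 was called with an adjusted p of 0.0273 in limma. As all DSS libraries were at 0 reads of Ankrd1, its fitted difference depends on the pseudocount. The ratio of 5.43 to the floor is given in its place, without counting error. With single libraries left out, Ankrd1 was called in 2 of 7 cases (adjusted p between 0.0291 and 0.114), missing the threshold without AOM+DSS library a or any 1 of the 4 DSS libraries, and Wwtr1 and Cyr61 each in 5 of 7. Without AOM+DSS library a the count of called members was 1, without AOM+DSS library b it was 2, and without the shallower DSS libraries c and d together it was 1. Over all genes, calls fell to 76, 86 and 52 in these fits, against 372 with every library. Differences over the single libraries left out ran between 3.21 and 4.16 for Wwtr1 and between 1.43 and 1.69 for Cyr61.

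The coactivator Yap1 and its partner Tead1 did not pass the threshold between the treatments. Yap1 differed by 0.29 (95% interval -0.07 to 0.64, limma adjusted p = 0.477), and Tead1 by 0.51 (0.13 to 0.89, limma adjusted p = 0.202). Amotl2 differed by 0.78 (0.30 to 1.26, limma adjusted p = 0.113). It passed at 0.0402 without AOM+DSS library c, in a range up to 0.415 over the libraries left out. Lats2 differed by -0.13 (95% interval -0.93 to 0.68, limma adjusted p = 0.900), and the difference was 0.17 without DSS library a and 0.14 without AOM+DSS library a.

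In DSS crypts none of the 7 members tested passed the threshold against control, in the authors' deposited table or in limma. Of all genes, 4.39% were called in the authors' deposited table and 5.61% in limma. At an unadjusted p under 0.05, 3 members were found by DESeq in the authors' deposited table and 3 by limma, but the sets differed. Tead1 and Yap1, both higher, were in each set. The third member was Ctgf (lower) by DESeq and Amotl2 (lower) by limma. The share of all genes at this unadjusted level is not given here, so these counts have no background beside them. The authors' deposited table gives a median log2 fold of 0.21 over the members, against 0.025 over all genes, with 4 of 7 above 0. That median is the value of Wwtr1, with means of 9.60 normalized reads in DSS and 8.32 in control. The direction of Wwtr1 turned with single libraries, as given below.

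Tead1 and Yap1 had the smallest unadjusted p among the members with a positive difference. Their log2 folds in the authors' deposited table were 0.55 for Tead1 (DESeq p = 0.00692, adjusted p = 0.112) and 0.40 for Yap1 (DESeq p = 0.0373, adjusted p = 0.321). Every DSS library of both genes lay above every control library, and those of Amotl2 lay below, as they did for 9.3% of all genes (higher) and 10.8% (lower). In limma, Tead1 had an adjusted p of 0.0498 without DSS library c, in a range between 0.0498 and 0.312 over the single libraries left out. Without DSS libraries c and d, both Yap1 (0.54, limma adjusted p = 0.0461) and Tead1 (0.72, limma adjusted p = 0.0271) passed.

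The direction of Ctgf in DSS rested on control library b. The authors' deposited table gives a log2 fold of -2.15 for Ctgf (DESeq p = 0.0139, adjusted p = 0.182), while the limma difference was -0.15 (95% interval -2.66 to 2.36). Without control library b the limma difference was 1.47, and without DSS library d it was 0.062. Wwtr1 also turned with single libraries, with a limma difference of 0.72 (95% interval -1.06 to 2.50), which was 1.62 without control library b and -0.084 without control library a. For the others the authors' deposited table gives log2 folds of -0.28 for Cyr61 (DESeq adjusted p = 1), -0.40 for Amotl2 (adjusted p = 0.635) and 0.54 for Lats2 (adjusted p = 0.756).

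Levels per kilobase of annotated exon (GENCODE M21, normalized reads per kb) put Yap1 first in every group, at 232 ± 36.7 in AOM+DSS, 191 ± 29.9 in DSS and 145 ± 8.98 in control (SD, n = 3, 4 and 3). In AOM+DSS the order of the levels went on with Cyr61 at 111 ± 20.1, Tead1 at 98.2 ± 16.2, Ctgf at 63.5 ± 22.4, Amotl2 at 47.6 ± 10.5, Wwtr1 at 30.3 ± 19.4, Lats2 at 25.8 ± 8.34 and Ankrd1 at 1.47 ± 0.874. Each of these neighbours overlapped the next within 1 SD, except that Yap1 stood clear at the top and Ankrd1 at the bottom.

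In DSS the levels per kb after Yap1 were 68.9 ± 10.5 for Tead1, 37.3 ± 7.16 for Cyr61, 29.2 ± 14.1 for Lats2, 27.3 ± 3.23 for Amotl2, 2.01 ± 0.932 for Wwtr1, 1.09 ± 0.415 for Ctgf and 0 for Ankrd1. Cyr61, Lats2 and Amotl2 did not differ beyond their spread, nor did Wwtr1 and Ctgf. In control the levels per kb were 47.1 ± 5.18 for Tead1, 45.2 ± 7.12 for Cyr61, 36.0 ± 1.95 for Amotl2, 20.03 ± 10.02 for Lats2, 4.84 ± 8.07 for Ctgf, 1.74 ± 2.10 for Wwtr1 and 0 for Ankrd1. There Tead1 and Cyr61 overlapped within 1 SD, as did Lats2 with Ctgf, Ctgf with Wwtr1 and Wwtr1 with Ankrd1. Ctgf thus stood in the middle of the order in AOM+DSS and next to last in DSS.

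Ctgf and Wwtr1 are also expressed in connective tissue, and the 16 fibroblast and matrix markers did not move as one. They summed to 6734, 8536 and 7030 normalized reads in AOM+DSS libraries a to c, 2217, 1168, 916 and 821 in DSS libraries a to d, and 685, 3479 and 701 in control libraries a to c. The sum was highest in AOM+DSS, and in control it was highest in library b, which held nearly all control Ctgf reads. Of the 16, 2 were higher in AOM+DSS than in control, Fn1 (fibronectin, log2 fold 3.77, DESeq adjusted p = 0.00548) and Vim (vimentin, 3.52, adjusted p = 0.0411), in the authors' deposited table. One, Pdgfrb (a growth factor receptor of pericytes and fibroblasts), was lower in the same authors' deposited table (-1.33, DESeq adjusted p = 0.000283). Over all genes tested there, 5.54% were called higher and 3.35% lower in AOM+DSS. None of the 16 had a group mean of 0, and 14 of 16 log2 folds in the authors' deposited table were above 0, with a median of 1.28.

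Fn1 and Vim made up most of the sum in AOM+DSS libraries a and b, and the other 14 markers most of it in library c, a split made after the values were seen. Fn1 and Vim together had 5718, 7912 and 2116 normalized reads in AOM+DSS libraries a to c, 984, 481, 411 and 406 in DSS libraries a to d, and 130.3, 843 and 284 in control libraries a to c. The other 14 had 1017, 624 and 4914 normalized reads in AOM+DSS libraries a to c, 1233, 687, 506 and 414 in DSS libraries a to d, and 555, 2636 and 417 in control libraries a to c. Within AOM+DSS all 14 were highest in library c, which also had the lowest Ctgf, Wwtr1, Cyr61, Amotl2, Yap1 and Tead1 of its group. Libraries a and b lay within the DSS and control range for the sum of the 14, in which single markers weigh heavily. Thy1 alone reached 901 normalized reads in DSS, and Pdgfrb lay between 339 and 390 in control. Marker by marker, 15 of all 16 limma differences between AOM+DSS and DSS were positive, with a median of 2.53. Of these 16, 1 was called higher and 0 lower in limma, against 2.28% higher and 0.0826% lower over all genes tested. At an unadjusted limma p under 0.05 there were 11. The share of all genes at this unadjusted level is not given here, so the 11 have no background beside them. Col1a1, a fibrillar collagen gene, had 77.3, 48.0 and 562 normalized reads in AOM+DSS libraries a to c, at most 28.0 in DSS and at most 136 in control. The part of these markers in the Ctgf and Wwtr1 results was not tested.

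**Figure D3:**
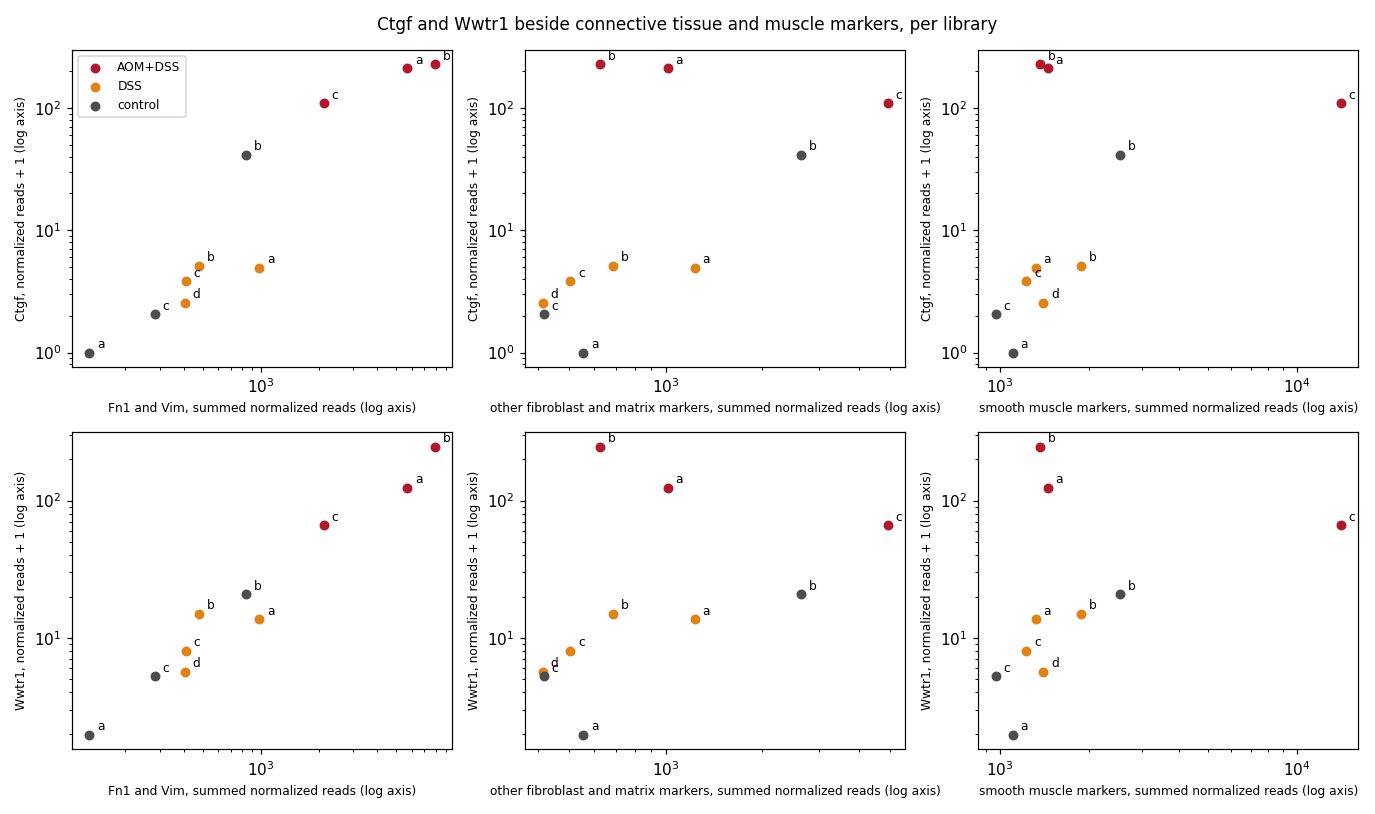
Ctgf (top) and Wwtr1 (bottom) in normalized reads + 1 against summed Fn1 and Vim (left), the other 14 fibroblast and matrix markers (middle) and smooth muscle markers (right), per library, all axes logarithmic and letters marking libraries. The 3 AOM+DSS libraries are at the upper right for Fn1 and Vim. For the other marker sums AOM+DSS library c is furthest right, with control library b next. AOM+DSS libraries a and b lie among DSS and control along the horizontal axis but above them along the vertical axis.

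Smooth muscle markers were likewise high in AOM+DSS library c. Their sums were 1446, 1366 and 14090 normalized reads in AOM+DSS libraries a to c, between 1228 and 1879 in DSS, and 1104, 2545 and 967 in control libraries a to c. In DSS most of the sum was Mylk, with a mean of 1240 out of 1457. Acta2 (smooth muscle actin) was at least 95.9 in AOM+DSS, at most 34.1 in DSS and up to 250 in control. It was the only muscle marker without overlap between AOM+DSS and DSS (limma adjusted p = 0.101). Library c had the lowest Ctgf and Wwtr1 of its group, and also the lowest Cyr61 (183), Amotl2 (223), Yap1 (1812) and Tead1 (1084). It was not the lowest for Lats2 or Ankrd1. The part of muscle in the Ctgf and Wwtr1 results was not tested. In the authors' deposited table, 0 of 10 muscle markers passed DESeq's threshold in either comparison, and 0 were past an unadjusted p under 0.05. Limma also called 0, with 1 at an unadjusted p under 0.05 in each comparison. Over all genes of the authors' deposited table, 5.54% were called higher and 3.35% lower in AOM+DSS, and 4.39% were called in DSS. With 10 markers, a count of 0 cannot be told from these shares. The markers with the highest means were Mylk (myosin light chain kinase, log2 0.58) and Tagln (transgelin, log2 2.16) in AOM+DSS over control in the authors' deposited table, and Myocd was at 0 in DSS.

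Among the 10 TEAD factors and YAP/TAZ cofactors, 9 were tested and 4 were higher in AOM+DSS than in control in the authors' deposited table, with none lower. They were Yap1, Wwtr1 and Tead1, already counted above, and Tead2, a second TEAD factor and the only one not among the 8 members. Over all genes tested there, 5.54% were called higher and 3.35% lower. Tead2 had 695, 749 and 326 normalized reads in AOM+DSS libraries a to c, 138, 124, 187 and 185 in DSS libraries a to d, and 137, 134 and 165 in control libraries a to c. AOM+DSS stood clear of both other groups, which overlapped. The log2 fold was 2.02 in AOM+DSS and 0.12 in DSS, each over control (DESeq adjusted p = 0.00355 and 1), in the authors' deposited table. Between AOM+DSS and DSS the limma difference was 1.82 (95% interval 1.13 to 2.51, adjusted p = 0.0193). The list's median log2 fold over control was 1.06 in AOM+DSS, which is the value of Tead1 itself, and 0.19 in DSS. The DSS median is the value of Vgll1, whose means were only 0.404 normalized reads in DSS and 0.353 in control. In DSS 0 of 9 were called by DESeq in the authors' deposited table, against 4.39% of all genes, and 0 were called by limma. The 2 at an unadjusted DESeq p under 0.05 were the members Yap1 and Tead1. Vgll2 was at 0 in every group and Vgll1 in AOM+DSS.

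Among the 22 Hippo kinases, scaffolds and adaptors, 1 was higher in AOM+DSS and none lower, while in DSS none was higher and 1 lower, in the authors' deposited table. Over all genes of the authors' deposited table, 5.54% were higher and 3.35% lower in AOM+DSS and 4.39% were called in DSS, so these counts are near the background. Ajuba, a LIM protein that binds LATS kinases, had 386, 486 and 186 normalized reads in AOM+DSS libraries a to c, between 92.0 and 135 in DSS, and 75.3, 71.1 and 60.4 in control libraries a to c. Its groups did not overlap, with a log2 fold of 2.35 in AOM+DSS over control in the authors' deposited table (DESeq adjusted p = 0.00221) and a limma difference of 1.55 between AOM+DSS and DSS (adjusted p = 0.0456).

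Amotl1, an angiomotin family relative of Amotl2, had 204, 372 and 116 normalized reads in AOM+DSS libraries a to c, 70.3, 88.2, 45.3 and 31.0 in DSS libraries a to d, and 232, 274 and 229 in control libraries a to c. It was low in all DSS libraries, while AOM+DSS spread beyond both ends of the control range. The authors' deposited table gives log2 folds over control of -0.085 in AOM+DSS (DESeq adjusted p = 1) and -2.06 in DSS (adjusted p = 0.00612). The limma difference between AOM+DSS and DSS was 1.90 (95% interval 0.84 to 2.97, adjusted p = 0.0844). The list's median log2 fold over control was 0.38 in AOM+DSS and 0.15 in DSS in the authors' deposited table.

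Of 25 other YAP/TAZ target genes, 3 were higher in AOM+DSS than in control and none lower, and 2 were higher in DSS and 1 lower (Amotl1), in the authors' deposited table. The same shares of all genes, 5.54% higher in AOM+DSS and 4.39% called in DSS, stand beside these counts, which are small for reading anything about the list. Areg, the epidermal growth factor receptor ligand amphiregulin, averaged 1926 normalized reads in AOM+DSS, 1864 in DSS and 415 in control in the authors' deposited table. Its log2 fold over control was 2.22 in AOM+DSS (DESeq adjusted p = 0.000169) and 2.17 in DSS (adjusted p = 0.000241) in the authors' deposited table. Nt5e, an ectonucleotidase that makes adenosine, was higher in both treatments, with log2 folds over control of 0.91 in AOM+DSS (DESeq adjusted p = 0.000433) and 0.72 in DSS (adjusted p = 0.0189) in the authors' deposited table.

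Arhgef17 had 349, 371 and 113 normalized reads in AOM+DSS libraries a to c, 109.9, 89.8, 72.2 and 80.7 in DSS libraries a to d, and 22.2, 58.3 and 33.9 in control libraries a to c. Its groups did not overlap, and the authors' deposited table gives log2 folds over control of 2.86 in AOM+DSS (DESeq adjusted p = 0.00377) and 1.21 in DSS (adjusted p = 0.473). The list's median log2 fold over control was 0.75 in AOM+DSS and -0.095 in DSS in the authors' deposited table. In limma between AOM+DSS and DSS, 2 of the 21 targets tested were higher, Rbms3 by 4.10 (adjusted p = 0.00886) and Ccdc80 by 2.85 (adjusted p = 0.0302), both named after their values were seen. Over the 15748 genes tested in this comparison, limma called 2.28% higher and 0.0826% lower.

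**Figure D4:**
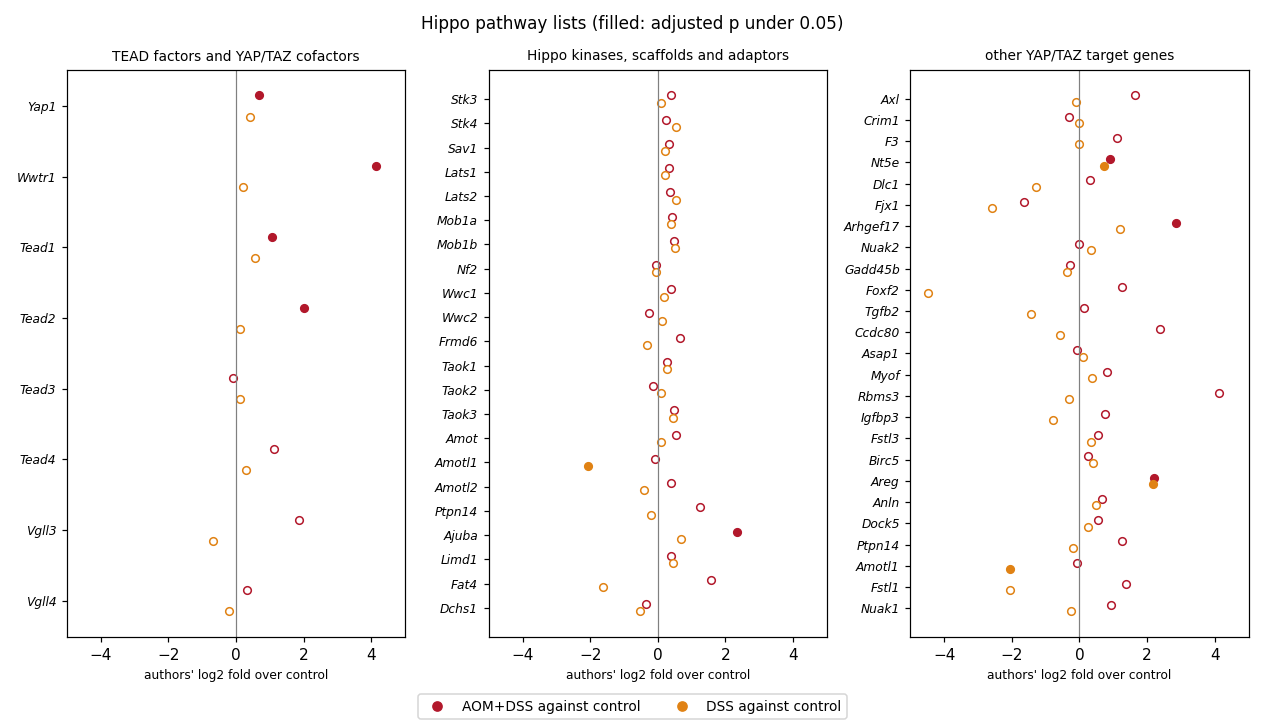
The authors' log2 fold over control (horizontal axes) for the genes of 3 pathway lists in AOM+DSS and in DSS; filled points have an adjusted p under 0.05, and 2 cofactor genes with a group mean of 0 (Vgll1 and Vgll2) are not drawn. In AOM+DSS the filled points are Yap1, Wwtr1, Tead1, Tead2, Ajuba, Nt5e, Arhgef17 and Areg, and in DSS they are Amotl1, Nt5e and Areg.

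Ctgf and Cyr61 also are known to respond early to serum, so 16 immediate early genes were read beside them. In AOM+DSS 2 were higher than in control, Ier3 (log2 fold 2.68, DESeq adjusted p = 0.000412) and Klf6 (0.80, adjusted p = 0.00337), and Ier2 was lower (-0.75, adjusted p = 0.00933), in the authors' deposited table. In DSS 1 was higher, Klf6 (0.70, DESeq adjusted p = 0.00907), and none was lower in the authors' deposited table. Over all genes tested there, 5.54% were called higher and 3.35% lower in AOM+DSS, and 4.39% were called in DSS. Beside these shares, the counts are small for reading anything about the list. Over the 7 of 16 recovered in every library, the summed normalized reads were between 3492 and 5166 in AOM+DSS, between 3921 and 5113 in DSS, and 1885, 6266 and 1978 in control libraries a to c. Control library b again stood above its group, and the part of these genes in the results was not tested.

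Likeness of pattern was measured as Pearson r of log2(normalized reads + 1) over the 10 libraries, among 9270 genes recovered in every library with a mean of at least 50. The libraries share the 3 groups, so r mostly follows the group differences. Ctgf was most like Ltbp1 (r = 0.984), Ltbp4 (0.983) and Thbs2 (0.980), and Cyr61 was most like Cdh13, Stra6 and Tbx3 (0.977, 0.977 and 0.975). Wwtr1 was most like Rhoj (r = 0.986), Msrb3 (0.983) and Lyz1 (0.977), of which Lyz1 has a near-identical paralogue that can share reads. Yap1 was most like Ier3 (r = 0.976), Pf4 (0.975) and Adam8 (0.975), and Tead1 was most like Fam3c (0.986), Grhl3 (0.984) and Cd44 (0.982).

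Among the members themselves, Wwtr1, Ctgf and Cyr61 were most alike, and so were Yap1 and Tead1. Ctgf ranked 8 for Wwtr1 (r = 0.966), and Cyr61 ranked 33 for Ctgf (r = 0.916). Yap1 ranked 74 for Tead1 (r = 0.942), while r between Yap1 and Ctgf was 0.689 and between Lats2 and Cyr61 0.154.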

How the data were processed

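Poly(A) RNA from distal colon crypts was sequenced with the TruSeq RNA v2 kit, per the labels' protocols, which does not mark the strand. Reads were mapped to mm9 with TopHat2 2.0 and compared with DESeq, per the submitters' processing notes. The sources used here do not give the read counter, annotation or strand setting. The authors deposited 2 tables. Their signal columns are group means of normalized read counts, their fold is a ratio, treated mean over control mean, their log2 values are its logarithm, and their p-values are DESeq's with Benjamini-Hochberg adjustment, per the file headers. One header names 4 replicates for AOM+DSS. The labels have 3, and 3 libraries account for the printed means.

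Whole reads per library were worked back from the printed digits of each mean, as sums of reads over size factors, and kept where a single combination matched the rounding. This gave 99.9% of genes in AOM+DSS, 88.7% in DSS and 99.6% in control, holding 95.3%, 30.9% and 87.9% of the mean totals; the lowest DSS mean not recovered was 1383. Recovered reads per library ran between 16165300 and 23593132 in AOM+DSS and between 15498747 and 17157456 in control, and for DSS only size factors give relative depth. Recovery was tested on simulated data. Letters cannot be tied to the labels' replicate numbers.

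Calls are the authors' adjusted p under 0.05, since the tables hold no counts per sample and the count test that would be used with them was not run. Limma 3.58.1 with trend (R 4.3.3) on log2(normalized recovered reads + 1) gave the spread between libraries, AOM+DSS against DSS, and the alternatives: another pseudocount (5), genes with a mean of at least 10, upper quartile scaling, all 3 groups in one fit, and libraries left out. Where a group is left with few libraries, the fit assumes that they vary like the rest. Exon lengths came from GENCODE M21 and promoters from RefSeq; Ctgf and Cyr61 are Ccn2 and Ccn1 there. The members and the lists (pathway, immediate early, fibroblast, smooth muscle, endothelial, myeloid and epithelial) were chosen with earlier results of these data known. Beside the members, up to 3 called genes with the smallest adjusted p were named per list, or the 2 with the highest mean, and the 3 genes most like each called member; Col1a1, Rbms3, Ccdc80, Vgll1, Vgll2 and Myocd fall outside this rule.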

Additional observations from a re-analysis of the deposited data

Results flagged for a closer look

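Lats2 in DSS library a, at 351 normalized reads, lay far from the other 3 DSS libraries, at 149, 156 and 158; the gap to its nearest neighbour was 0.953 of the group's range. Of the members and named genes, 22 were examined for such a library, and chance marks about 1 in 20 groups.

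In limma, 4 members differed between the 2 treatments, whose folds over control share the same control libraries. The difference of AOM+DSS from DSS was 5.45 for Ctgf, 1.56 for Cyr61 and 3.69 for Wwtr1 on the log2 scale. The fitted 2.26 for Ankrd1 depends on the pseudocount, since every DSS library had 0 reads. Its AOM+DSS mean was 5.43 times the floor of 3 reads over the DSS group, without counting error.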

How the results depend on the processing

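No paired analysis was possible because nothing links a recovered library to a numbered replicate. Among the authors' calls, 0 members in DSS against control and 5 in AOM+DSS against control were also found over genes with a mean of at least 10. With limma, the count in AOM+DSS against control was between 1 and 7 over the libraries left out in turn (6 in full), in AOM+DSS against DSS between 1 and 5 (4 in full), and in DSS against control between 0 and 1 (0 in full). Without DSS libraries c and d, the count was 2 in DSS against control and 1 in AOM+DSS against DSS; removing libraries leaves fewer samples. Pseudocount, filter, scaling and a joint fit kept each limma count within 1.5 times. Directions turned only for members that were not called: Ctgf in DSS against control was 0.062 without DSS library d, 1.47 without control library b and 0.19 without DSS libraries c and d, with -1.22 to 1.47 over single libraries left out. Wwtr1 there was -0.084 without control library a, with -0.084 to 1.62 over single libraries. Lats2 in AOM+DSS against DSS was 0.14 without AOM+DSS library a, 0.17 without DSS library a and 0.18 without DSS libraries a and b, with -0.35 to 0.17 over single libraries; the cause was not tested. The 13 Ctgf reads in all of DSS and the 15 Ankrd1 reads in AOM+DSS limit how finely these genes can be compared.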

Other observations

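Marker lists of other cells the crypt preparations could hold gave the following. Over all genes tested in the authors' deposited table, 5.54% were called higher and 3.35% lower in AOM+DSS, and 4.39% were called in DSS. These shares stand beside the counts below. Of 10 myeloid markers in the tables, 6 were higher in AOM+DSS and 2 in DSS than in control, with none lower, in the authors' deposited table. They include Cd14, the lipopolysaccharide coreceptor, with log2 folds of 1.26 in AOM+DSS (DESeq adjusted p = 4.79e-05) and 0.91 in DSS (adjusted p = 0.00817), and Fcer1g, an Fc receptor chain, with 3.16 in AOM+DSS (adjusted p = 0.00194), in the authors' deposited table. Emr1, the macrophage marker F4/80, had a log2 fold of 3.69 in AOM+DSS over control in the authors' deposited table (DESeq adjusted p = 0.00505). Summed over the 9 myeloid markers recovered in every library, normalized reads were between 3673 and 8000 in AOM+DSS, between 822 and 6761 in DSS, and between 285 and 2035 in control, with overlap between AOM+DSS and DSS and between DSS and control.

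Of 11 endothelial markers, 0 passed DESeq's threshold in either comparison in the authors' deposited table, beside the shares of all genes given above. At an unadjusted DESeq p under 0.05 there were 2 in AOM+DSS and 1 in DSS. The share of all genes at this level is not given here. Limma called 1 higher in AOM+DSS and 0 in DSS, against 10.8% of all genes higher in AOM+DSS and 5.61% called in DSS. Of the 11 log2 folds over control in the authors' deposited table, 9 were above 0 in AOM+DSS (median 0.69) and 2 in DSS (median -0.39). Vwf (von Willebrand factor) and Pecam1, named for their highest means, went the other way in AOM+DSS. The log2 folds were -0.81 in AOM+DSS and -0.76 in DSS for Vwf, and -0.95 and -0.27 for Pecam1. Of 13 epithelial markers, 1 was higher in AOM+DSS, the tight junction gene Cldn4, which averaged 5744 normalized reads in AOM+DSS, 1564 in DSS and 622 in control in the authors' deposited table (log2 fold 3.21 in AOM+DSS over control, DESeq adjusted p = 9.23e-05). In DSS, 0 of the 13 were called by DESeq in the authors' deposited table, with 1 at an unadjusted p under 0.05, and Cldn4 had a log2 fold of 1.33 (adjusted p = 0.386); limma, which could test 1 of the 13 there, called that 1 higher.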
